A study of Mus musculus with 4 samples.

Results

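The subject here is a set of 40 mouse genes of the cell cycle and of DNA replication, read in ATAC-seq peak lists of bone marrow-derived macrophages. They were picked by gene name, with earlier results of these data known, and are 40 of the 21887 protein-coding genes of the RefSeq annotation. By role they comprise 10 genes of replication licensing and the replicative helicase, 5 of DNA synthesis, 10 that drive the G1 to S transition, 3 that restrain it and 12 of G2 and mitosis. ATAC-seq marks open chromatin by the places where the Tn5 transposase can insert, and a peak is a stretch where insertions pile up. A gene was said to have an edge peak when a peak lay within 1 kb of either end of its span, and the peaks of a locus were those that touched the span or the 10 kb to either side of it, each counted once.

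The series asked how chromatin accessibility changes in macrophages that lack creatine when they are polarised. It holds 4 libraries, all from mice of the C57BL/6 strain background. The groups are Slc6a8-/y cells (KO) given IL-4 (written IL4 in the labels), untreated Slc6a8-/y cells, wild-type cells (WT) given IL-4, and untreated wild-type cells. All of them were grown from bone marrow in 10% M-CSF, the macrophage growth factor, for 5 days, and 50000 cells went into each library. IL-4, a cytokine that drives alternative macrophage activation, was given at 10 ng/mL for 6 h. Slc6a8 is the X-linked creatine transporter. How its allele was made, the age and number of the mice, and whether marrow was pooled are not given in the sources used here. Each group is 1 library, so every difference below lies between 2 libraries and not between conditions, no test was possible, and no p-value is given.

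The lists held 10443 peaks for KO with IL-4, 13714 for KO untreated, 9930 for WT with IL-4 and 17339 for WT untreated. No read depth is known, and the longer list of each pair was the untreated one. Each value is therefore given for all peaks and, where it matters, for the 9930 highest-scoring peaks of each list. Of 15 macrophage markers, 9, 11, 11 and 15 had a locus peak in KO IL-4, KO untreated, WT IL-4 and WT untreated. Of all 21887 protein-coding genes 9660, 11295, 9482 and 12257 had one. An edge peak was at 4 (26.7%), 7 (46.7%), 3 (20.0%) and 9 (60.0%) of the markers in the same order. The shares over all genes were 29.0%, 34.8%, 28.4% and 38.2%. With 9930 peaks in each list 4, 5, 3 and 4 markers had an edge peak, against 28.3%, 29.9%, 28.4% and 29.3%. Locus peaks were then at 9, 10, 11 and 8 markers, against 9410, 9783, 9482 and 9655 of all genes. Of 22 markers of T cells, B cells, neutrophils, fibroblasts and erythroid cells, Cd3d had an edge peak in all 4 libraries, Ms4a1 and S100a8 had one in WT untreated alone, and the fibroblast markers Col1a1, Col1a2, Col3a1 and Pdgfra had none. Lck, Cd79a, Klf1 and Epor had a locus peak in all 4 libraries as well, so 5, 5, 5 and 7 of the 22 had one, in the same order. No library had a peak within 10 kb of Slc6a8, so the genotype labels could not be checked at the targeted gene.

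Cells prepare for division by loading the MCM helicase on replication origins in G1, a step called licensing that needs Cdc6 and Cdt1. Cyclin D with Cdk4 or Cdk6 and cyclin E with Cdk2 then inactivate the retinoblastoma protein, which frees E2F factors to switch on the genes of S phase, while genes of G2 and mitosis are driven later through NF-Y boxes and an element named CHR. M-CSF is a mitogen for macrophage precursors, and differentiated macrophages divide less.

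Promoter windows from RefSeq (build GRCm38.p6, 250 bases before to 50 bases after the annotated start, 300 in all) were at hand for 30 of the 40 genes. They are shown for 6 of them, 5′ to 3′ on the strand of the gene, with capitals marking E2F words, NF-Y boxes and CHR words. GC boxes, also counted next, are left in lower case. Cdc6 and Cdk2 are shown because their start-site peak was missing from a library, Mcm3 and Cdc25a as examples with an E2F word, and Aurka and Mki67 as examples with both NF-Y and CHR words. The windows lie at chr11:98907901-98908200 (plus strand) for Cdc6, chr10:128705002-128705301 (minus) for Cdk2, chr1:20820263-20820562 (minus) for Mcm3, chr9:109875329-109875628 (plus) for Cdc25a, chr2:172370521-172370820 (minus) for Aurka and chr7:135716330-135716629 (minus) for Mki67.
Cdc6: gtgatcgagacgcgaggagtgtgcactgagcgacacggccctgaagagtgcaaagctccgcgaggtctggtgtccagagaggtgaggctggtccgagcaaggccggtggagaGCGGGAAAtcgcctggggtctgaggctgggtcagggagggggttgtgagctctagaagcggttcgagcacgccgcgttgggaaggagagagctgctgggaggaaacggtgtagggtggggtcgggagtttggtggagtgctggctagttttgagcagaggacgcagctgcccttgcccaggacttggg
Cdk2: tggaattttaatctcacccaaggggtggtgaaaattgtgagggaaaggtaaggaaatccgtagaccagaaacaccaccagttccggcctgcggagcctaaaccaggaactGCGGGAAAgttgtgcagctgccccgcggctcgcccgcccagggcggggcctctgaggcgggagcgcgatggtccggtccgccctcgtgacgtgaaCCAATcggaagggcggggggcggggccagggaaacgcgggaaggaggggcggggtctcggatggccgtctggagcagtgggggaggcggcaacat
Mcm3: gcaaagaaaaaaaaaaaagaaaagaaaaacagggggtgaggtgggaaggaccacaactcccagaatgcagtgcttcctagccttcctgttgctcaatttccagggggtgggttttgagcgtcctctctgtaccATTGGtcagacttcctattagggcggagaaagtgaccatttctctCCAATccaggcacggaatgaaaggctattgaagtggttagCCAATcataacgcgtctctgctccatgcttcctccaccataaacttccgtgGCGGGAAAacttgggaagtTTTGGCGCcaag
Cdc25a: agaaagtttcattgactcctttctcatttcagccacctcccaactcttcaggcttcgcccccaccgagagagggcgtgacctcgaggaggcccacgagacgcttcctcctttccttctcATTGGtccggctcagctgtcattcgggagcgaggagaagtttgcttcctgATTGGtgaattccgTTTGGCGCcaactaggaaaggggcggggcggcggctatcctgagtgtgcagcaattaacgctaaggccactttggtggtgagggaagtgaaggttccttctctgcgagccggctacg
Aurka: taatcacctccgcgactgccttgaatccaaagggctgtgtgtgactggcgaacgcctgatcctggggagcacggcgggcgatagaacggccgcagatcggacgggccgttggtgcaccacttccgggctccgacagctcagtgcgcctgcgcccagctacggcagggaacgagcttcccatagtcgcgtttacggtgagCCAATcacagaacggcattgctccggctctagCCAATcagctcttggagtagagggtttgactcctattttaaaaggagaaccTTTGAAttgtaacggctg
Mki67: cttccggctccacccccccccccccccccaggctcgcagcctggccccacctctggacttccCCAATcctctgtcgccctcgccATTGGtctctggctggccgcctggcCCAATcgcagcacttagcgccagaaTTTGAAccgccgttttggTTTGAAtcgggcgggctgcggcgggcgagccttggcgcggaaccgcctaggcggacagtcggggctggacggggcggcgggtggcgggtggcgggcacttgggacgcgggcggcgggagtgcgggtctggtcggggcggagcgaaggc

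In these windows the capitals in Cdc6 and the first capitals in Cdk2 are an E2F word on the opposite strand, and the second in Cdk2 are an NF-Y box. Mcm3 carries NF-Y boxes followed by an E2F word on each strand, Cdc25a carries NF-Y boxes and an E2F word, and Aurka and Mki67 carry NF-Y boxes and CHR words. Positions are counted with 0 at the annotated start and give the first base of a word. The E2F word of Cdc6 began at -138, that of Cdk2 at -140 and that of Cdc25a at -67, while the 2 of Mcm3 began at 19 and 38. The CHR word began at 32 in Aurka, and at -116 and -98 in Mki67.

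The words were searched on both strands in the 30 windows of the members and in those of all 17492 protein-coding genes with one. The E2F word (TTTCCCGC, TTTCGCGC, TTTGCCGC or TTTGGCGC) was in 10 of the 30 windows (33.3%, exact 95% interval 17.3 to 52.8), against 2.94% of all promoters. The NF-Y box (CCAAT) was in 22 (73.3%, 54.1 to 87.7), against 39.2%, and the CHR word (TTTGAA) in 9 (30.0%, 14.7 to 49.4), against 16.5%. All 9 of those also had an NF-Y box, a pairing found in 6.72% of all promoters. The GC box (GGGCGG) was in 23 (76.7%, 57.7 to 90.1), against 46.3%. In the 3879 promoters that had a peak in every library the shares were 5.49% for the E2F word, 52.5% for the NF-Y box, 10.4% for the CHR word and 74.7% for the GC box. Of the 17 members' windows with a peak in every library, the same words were in 7, 14, 6 and 14. The members were thus close to open promoters in their share of GC boxes and above them in the E2F word, the NF-Y box and the CHR word, and no test of this was run.

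Among the members the E2F and CHR words fell mostly in promoters of different roles, whereas the GC box was common in most, and none of this was tested. The E2F word was in 6 of 7 licensing promoters, those of Mcm3, Mcm5, Mcm6, Mcm7, Cdc6 and Cdt1, and outside them in Pola1, Cdk2, Cdc25a and Cdk1. The CHR word was in 8 of 10 promoters of the G2 and mitosis genes, those of Ccnb2, Cdk1, Cdc20, Bub1b, Mki67, Top2a, Aurka and Plk1, and outside them in Mcm2 alone. An NF-Y box was in all 10 promoters of G2 and mitosis genes, in 4 of 4 synthesis, 5 of 7 licensing and 2 of 7 G1 to S promoters. The GC box was in 8 of 10, 3 of 4, 5 of 7 and 6 of 7 of them. Among other cell cycle genes, listed by name as well, the E2F word was in 6 of 28 replication promoters, 7 of 22 control promoters and 0 of 19 mitosis promoters. The CHR word was in 5 of those 28 (17.9%), 8 of those 22 (36.4%) and 12 of those 19 (63.2%). Control promoters thus held both words, and the roles were less separate there. The CHR words of the members began at a median of -23, against -132 over all promoters with one. A match describes letters in the window and does not show that a factor binds there. In the members the words overlapped as follows: E2F words on opposite strands in Mcm5 and in Mcm6, an E2F word and an NF-Y box by 1 base in Mcm7, and GC boxes in Cdc25a and in Cdk4.

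**Figure D1:**
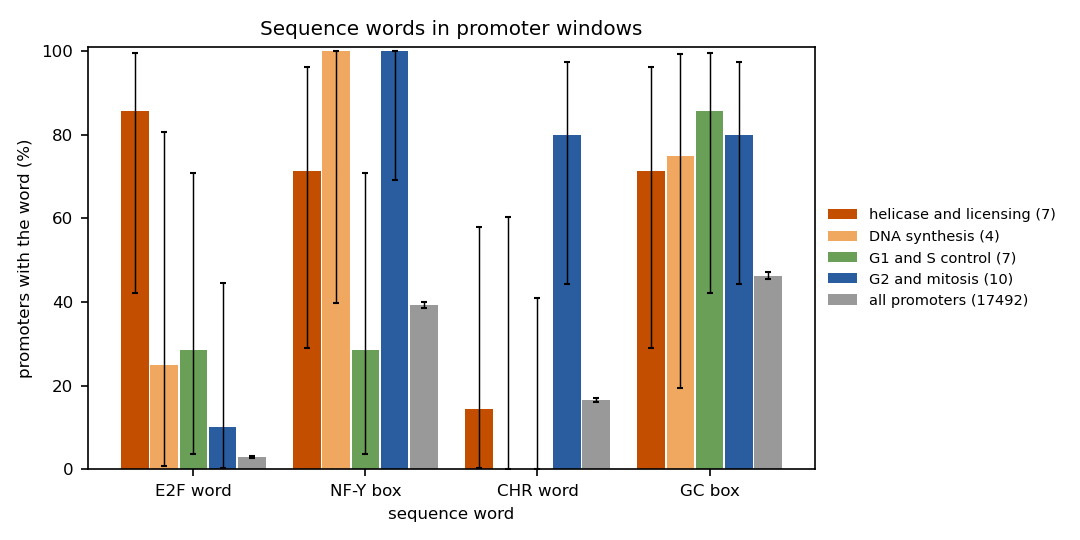
Share of RefSeq promoter windows (%, y axis) that hold each sequence word (x axis), for 4 roles of the 40 genes (number of windows in the legend) and for all 17492 promoters in grey. Bars are shares and lines exact 95% intervals; the E2F word is in 6 of 7 licensing promoters and the CHR word in 8 of 10 promoters of G2 and mitosis genes.

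Most words of the members lay inside a peak in each library, but the same count was not made over all promoters. Of the 15 E2F words, 13 in KO IL-4, 13 in KO untreated, 11 in WT IL-4 and 14 in WT untreated lay wholly inside a peak. Of the 13 CHR words, 11, 13, 9 and 13 did so in the same order of libraries. Of the 48 NF-Y boxes 42, 48, 39 and 45 did so, and of the 50 GC boxes 37, 43, 31 and 45. The E2F word of Cdc6 was inside no peak: its peaks lay upstream, and in KO untreated the peak ended at -132, within the word. The E2F word of Cdt1, at 32, was inside the WT untreated peak alone, which reached to 80, whereas the Cdt1 peaks of KO IL-4, KO untreated and WT IL-4 ended at -208, 37 and 3.

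The genes as a set had edge peaks more often than genes at large in every library. An edge peak was present at 28 of 40 in KO IL-4 (70.0%, exact 95% interval 53.5 to 83.4), against 29.0% of all protein-coding genes. It was present at 35 in KO untreated (87.5%, 73.2 to 95.8), against 34.8%. In WT IL-4 it was present at 27 (67.5%, 50.9 to 81.4), against 28.4%, and in WT untreated at 34 (85.0%, 70.2 to 94.3), against 38.2%. Intervals here and below cover counting error only, and no test of these shares was run. A peak reports on the whole culture, so fewer cells with an open site and less opening per cell cannot be told apart.

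With 9930 peaks in each list the counts were 28, 32, 27 and 33 of 40, against 28.3%, 29.9%, 28.4% and 29.3% of all genes, in KO IL-4, KO untreated, WT IL-4 and WT untreated. The fall of the untreated counts was 3 and 1 genes, while the share over all genes became nearly level. An edge peak in every library was found at 24 of 40 (60.0%, 43.3 to 75.1), against 22.9% of all genes, and at equal list lengths again at 24, against 21.0%. At the promoter windows, 21 of 30 had a peak in KO IL-4, 26 in KO untreated, 20 in WT IL-4 and 26 in WT untreated, against 28.1%, 33.8%, 27.4% and 36.8% of all promoters.

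**Figure D2:**
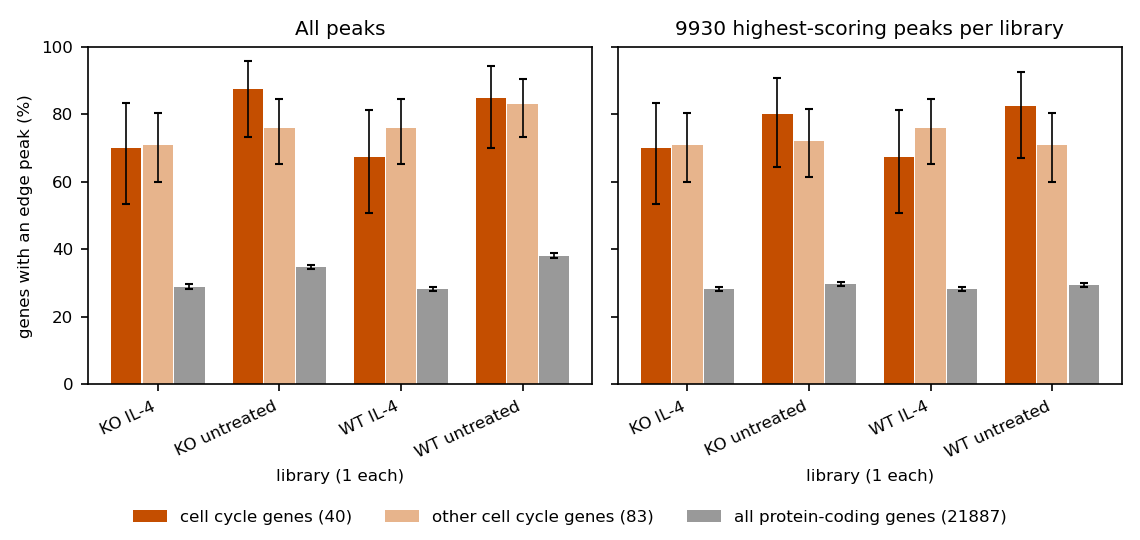
Share of genes with an edge peak (%, y axis) in each library (x axis, 1 library each) for the 40 genes, 83 other cell cycle genes and all 21887 protein-coding genes, with all peaks on the left and the 9930 highest-scoring peaks per library on the right; lines are exact 95% intervals. The 40 genes lie between 67.5% and 87.5% with all peaks, where all genes lie between 28.4% and 38.2%.

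Most of the members' peaks at the start-site end covered the start, but the same count was not made over all genes. Where strand and start are annotated, 22 members in KO IL-4, 27 in KO untreated, 21 in WT IL-4 and 26 in WT untreated had a peak at the start-site end, with its centre at a median of -69, -70, -44 and -74 bp from the start. It spanned the start itself in 20, 24, 19 and 24 of them. E2f1 had peaks centred at -664 to -593 bp in all 4 libraries and a second, weak one at the start in WT untreated (score 63.54). The Cdc6 peaks, centred at -497 to -378 bp, and the Cdt1 peak of KO IL-4, centred at -514 bp, also ended short of the start. The upstream peaks of Cdc6 and E2f1 covered the start-site end of the RefSeq gene span, which lies upstream of the start used here. Of the 36 members with an edge peak in some library, 7 (19.4%, 8.19 to 36.0) shared it with the edge of another gene, against 31.3% of all genes. These pairs were Mcm4 with Prkdc, Mcm7 with Ap4m1, Pcna with Cds2, Pole with Pxmp2, Ccnd3 with Bysl, Ccna2 with Bbs7 and Aurka with Cstf1, and such a peak cannot be given to either gene.

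**Figure D3:**
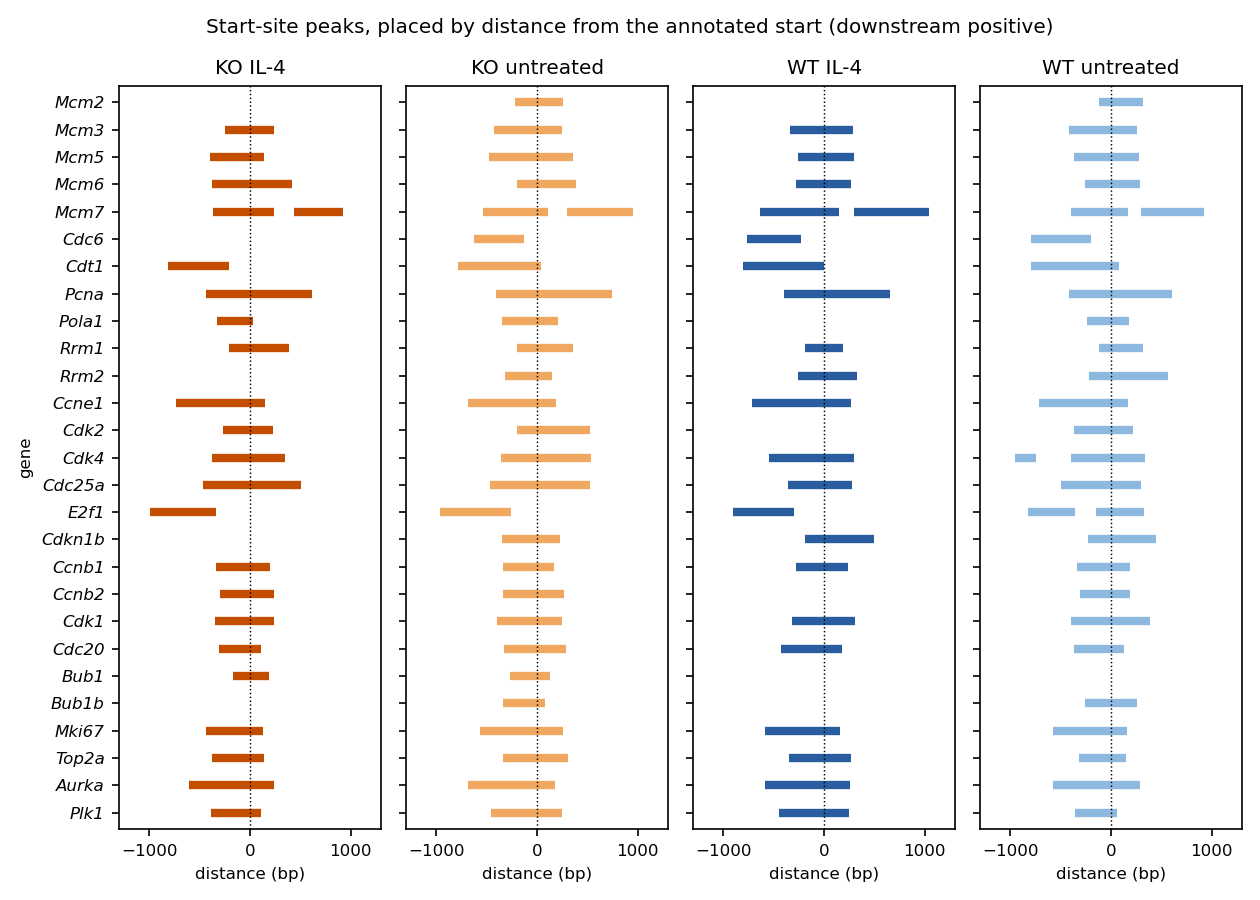
Position of each start-site peak (bar from end to end) in base pairs from the annotated start (x axis, downstream positive, dotted line at 0) for each gene with strand and start annotated (y axis), 1 panel per library. Most bars cross the start, and empty rows in the IL-4 panels show the genes with no such peak there. Bars of Cdc6 and E2f1 upstream of the start cover the start-site end of the gene span, which differs from the start used here.

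The score of a peak is the authors' own, from their peak caller, and is used here to rank peaks within a list and, in an alternative, as a limit of 100 on all lists, although scores of different lists may not be comparable. Scores began at about 50 in each list and reached 3100. The edge peak of a member had a median percentile of 83.2 in KO IL-4, 72.7 in KO untreated, 69.5 in WT IL-4 and 79.3 in WT untreated, against 63.4, 67.7, 64.3 and 70.6 for the edge peaks of all genes. Among the 24 members with an edge peak everywhere, 19 were above the 50th percentile in each list, and the exceptions were Mcm6, Pole, Ccne2, Ccnb1 and Plk1. The peak at Plk1, a kinase of mitotic entry, scored 53.99 in KO IL-4 (percentile 8.79), 118.45 in KO untreated, 106.34 in WT IL-4 and 114.52 in WT untreated.

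The licensing genes and the helicase had edge peaks at 8, 10, 9 and 10 of 10 genes in KO IL-4, KO untreated, WT IL-4 and WT untreated. Gins2, a subunit of the GINS part of the helicase, had the highest edge-peak score of all members in each library, 399.30 in KO IL-4, 502.29 in KO untreated, 302.59 in WT IL-4 and 700.37 in WT untreated. Of the MCM genes, Mcm4 had 312.32, 360.36, 270.21 and 450.30, and Mcm3 had 221.67, 282.92, 290.58 and 451.95, in the same order. Mcm5 and Mcm6 had an edge peak in every library, between 72.30 and 230.58. Each of these 5 genes was thus open at an edge in all 4 libraries.

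Mcm2, a subunit of the same helicase, was the licensing gene with a start-site peak in the untreated lists alone. It scored 95.43 in KO untreated (chr6:88898519-88898999) and 98.55 in WT untreated (chr6:88898466-88898896), and no edge peak was listed in KO IL-4 or WT IL-4. A peak centred at -3448 to -3442 bp from the start, at the edge of the neighbour Tpra1, was listed in KO IL-4 (67.95), KO untreated (90.37) and WT untreated (102.73). Mcm2 therefore had 1, 2, 0 and 3 locus peaks in KO IL-4, KO untreated, WT IL-4 and WT untreated.

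Cdc6, the loader of the helicase, had its peak upstream of the start of its promoter window entry in KO untreated (76.21, chr11:98907527-98908019), WT IL-4 (103.40, chr11:98907385-98907923) and WT untreated (205.85, chr11:98907356-98907952). These peaks covered the start-site end of its RefSeq span, at chr11:98907709. KO IL-4 had no peak in the whole locus, so Cdc6 separated that library from the other 3. A peak inside the gene was listed in both untreated libraries (55.10 KO, 81.56 WT), and one 9118 to 9268 bp beyond its end in KO untreated (65.27), WT IL-4 (58.72) and WT untreated (123.38). Cdt1, its partner, had an edge peak of 88.97, 121.94, 115.51 and 156.84 in KO IL-4, KO untreated, WT IL-4 and WT untreated, and further peaks in the locus in WT untreated alone.

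Mcm7 had a pair of edge peaks in each library, one over its start and the other centred 613 to 678 bp downstream, where RefSeq places another start. The higher of the pair scored 117.70, 123.18, 87.62 and 121.68 in KO IL-4, KO untreated, WT IL-4 and WT untreated. Gins1, another GINS subunit, had an edge peak of 106.17, 152.35, 105.10 and 211.03 in the same order. It also had a peak at the edge of Abhd12 in all 4 libraries, and a weak one inside the gene in KO IL-4 (53.52), WT IL-4 (51.63) and WT untreated (61.49).

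The synthesis genes had edge peaks at 4, 5, 4 and 5 of 5 genes in KO IL-4, KO untreated, WT IL-4 and WT untreated. Pcna, the sliding clamp, had an edge peak of 251.14, 379.31, 227.58 and 485.05. Its locus held 3 peaks in each library, the others lying 1187 to 1375 bp beyond its end and 9574 to 9656 bp upstream. Rrm1, the large subunit of ribonucleotide reductase, had 167.96, 124.70, 98.92 and 145.60, and Pole, the catalytic subunit of polymerase epsilon, had 85.14, 166.20, 72.56 and 183.55. All 3 were open in every library.

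Pola1 and Rrm2 each lacked a peak in 1 IL-4 library, but not the same one. Pola1, the catalytic subunit of the polymerase that makes primers, scored 61.16 in KO IL-4 (chrX:93632122-93632486), 110.08 in KO untreated and 142.11 in WT untreated, with none in WT IL-4. Rrm2, the small subunit of ribonucleotide reductase, scored 82.56 in KO untreated, 65.56 in WT IL-4 (chr12:24707990-24708583) and 128.84 in WT untreated, with none in KO IL-4. These were the only locus peaks of both genes.

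Among the genes that drive entry into S phase, 6, 7, 5 and 6 of 10 had an edge peak. Ccne1 (cyclin E) scored 176.69, 283.97, 177.68 and 310.45 in KO IL-4, KO untreated, WT IL-4 and WT untreated, and Cdc25a, the phosphatase that activates Cdk2, scored 221.36, 256.23, 153.53 and 408.30. Cdk4, the partner of cyclin D, scored 213.31, 380.50, 161.80 and 282.22, and its locus held 1, 3, 1 and 3 peaks. E2f1 scored 130.84, 182.92, 127.64 and 223.52, and Ccne2, the second cyclin E gene, had lower scores of 73.16 to 119.53. Each of these 5 genes had an edge peak in every library.

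Cdk2, the kinase bound by cyclin E, had a start-site peak in KO IL-4 (85.79, chr10:128704828-128705316), KO untreated (145.35, chr10:128704521-128705252) and WT untreated (136.34, chr10:128704834-128705417). None was listed in WT IL-4. The E2F word, the NF-Y box and the GC boxes of its promoter were inside the peaks of these 3 libraries. A peak shared by the edges of Pmel and Rab5b, 1112 to 1307 bp beyond the other end of Cdk2, was listed in all 4 libraries with scores of 392.92, 483.99, 308.21 and 692.45 in KO IL-4, KO untreated, WT IL-4 and WT untreated.

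Unlike Cdk4, the other genes of the cyclin D step had few edge peaks or none. Ccnd1, Ccnd2 and Cdk6 had no edge peak in any library, as had 58.3% of all protein-coding genes, and Ccnd3 had one in KO untreated alone (64.78), at the end far from its start and shared with Bysl. Ccnd2 had no peak in its locus in any list. Ccnd1 had a single one, in KO untreated (70.28, chr7:144941316-144941860), 1485 bp outside its span. Ccnd3 was open at a start inside its span: a peak lay in the window chr17:47593217-47593516, a second RefSeq start, in KO IL-4 (59.26), KO untreated (138.84), WT IL-4 (169.25) and WT untreated (110.78). Of the 3 D-type cyclins Ccnd3 alone was therefore open at an annotated start, and it was so in every library.

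The other Ccnd3 peaks lay at the edge of Taf8, in all 4 libraries, and, centred 6190 to 6257 bp from the first start, inside the gene, in KO IL-4 (53.95), KO untreated (97.79) and WT untreated (97.38). One centred at 3096 bp was listed in KO IL-4 alone (57.86). Cdk6 had 3 peaks deep inside the gene in each untreated library, centred 150668 to 158888 bp downstream of its start, and none in its locus in KO IL-4 or WT IL-4. They scored 92.44, 59.15 and 105.73 in KO untreated, against 132.05, 58.57 and 83.76 in WT untreated, and the first of them began at the same base in both, at chr5:3494376. Of these, 2 in KO untreated and 1 in WT untreated were among the 9930 highest-scoring peaks.

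The restraining genes were open at an edge in 0, 1, 1 and 2 of 3 genes in KO IL-4, KO untreated, WT IL-4 and WT untreated. Cdkn1b, an inhibitor of cyclin E with Cdk2, had a start-site peak in KO untreated (81.89), WT IL-4 (99.86, chr6:134920212-134920899) and WT untreated (134.36), and none in KO IL-4. A second peak, centred 8208 to 8244 bp downstream of its start, was in all 4 lists (88.25, 187.31, 120.13 and 200.44 in that order), so the locus was not closed in KO IL-4. Cdkn1a, the inhibitor induced by p53, had no peak at either of its RefSeq starts, but 1 peak inside the gene centred 4434 to 4572 bp from the first, with scores of 104.86 in KO IL-4, 120.49 in KO untreated, 53.17 in WT IL-4 and 124.52 in WT untreated. Rb1, the retinoblastoma gene, had an edge peak in WT untreated alone (91.43, chr14:73325849-73326278) and weak peaks inside the gene in KO untreated (60.11) and WT untreated (65.44, and 58.14 at the edge of Lpar6). It had none in either IL-4 library.

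The genes of G2 and mitosis had edge peaks at 10, 12, 8 and 11 of 12 genes. Ccna2 (cyclin A) scored 241.96, 347.91, 264.86 and 470.52 in KO IL-4, KO untreated, WT IL-4 and WT untreated, and Aurka, the spindle pole kinase, scored 175.38, 371.43, 154.49 and 349.53. Cdk1, Cdc20, Top2a, Mki67 and Ccnb1 were also open in every library, with scores from 79.47 to 255.24. They encode the mitotic kinase, an activator of the anaphase-promoting complex, topoisomerase II, the Ki-67 protein and cyclin B. With Plk1, 8 of the 12 genes had an edge peak throughout.

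The remaining 4 were the checkpoint kinases Bub1 and Bub1b, the second cyclin B gene Ccnb2 and Aurkb, the kinase of the chromosomal passenger complex. Ccnb2 had a start-site peak in KO IL-4 (81.10, chr9:70421315-70421851), KO untreated (109.83) and WT untreated (143.75), and none in WT IL-4. Bub1b had one in KO untreated (73.97) and WT untreated (126.09), and none with IL-4. Aurkb followed the same pattern with scores near the floor of the lists, 51.68 in KO untreated and 69.35 in WT untreated. Bub1 differed from the other 3: it had a start-site peak in both KO libraries, 52.96 with IL-4 (chr2:127831669-127832034) and 62.82 untreated (chr2:127831728-127832131), and no peak in its locus in either WT library. Both Bub1 peaks ranked low in their lists, at percentiles 6.60 and 21.0.

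**Figure D4:**
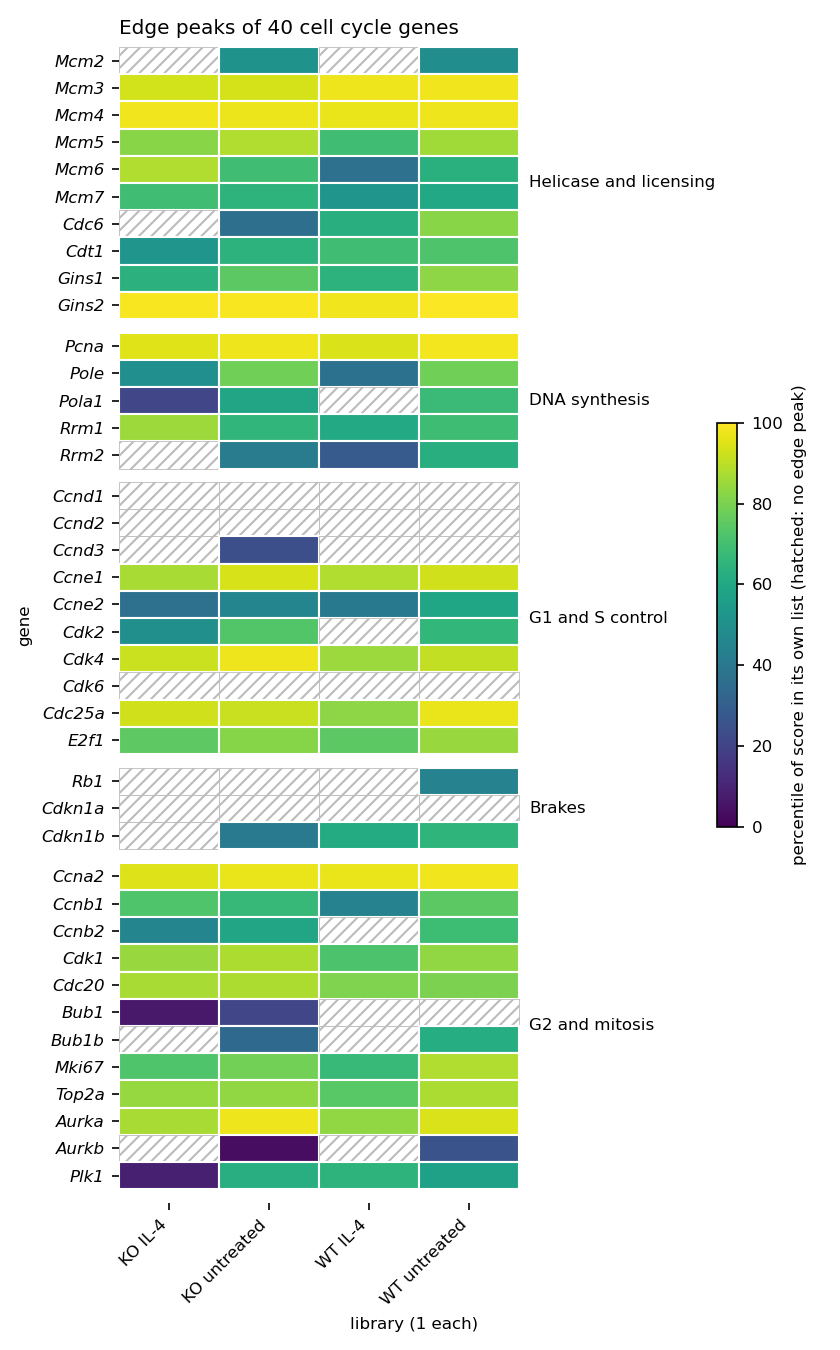
Edge peaks of the 40 genes (y axis, grouped by role) in the 4 libraries (x axis, 1 each); colour is the percentile (0 to 100) of the highest-scoring edge peak in its own list, and hatching marks no edge peak. Of the 40 genes, 24 are coloured throughout, and Ccnd1, Ccnd2, Cdk6 and Cdkn1a are hatched throughout.

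With IL-4 over untreated in WT, edge peaks were lost and none gained. Of 34 members with an edge peak in WT untreated, 7 had none in WT IL-4 (20.6%, 8.70 to 37.9), against 28.8% of all genes, and 0 of 6 without one gained it, against 1.89%. The 7 were Mcm2, Pola1, Cdk2, Rb1, Ccnb2, Bub1b and Aurkb. With lists of equal length 6 of 33 were lost (18.2%), all but Aurkb, against 16.8%, and 0 of 7 were gained, against 5.61%. The exact interval of the share of members lost held the share over all genes.

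With IL-4 over untreated in KO, 7 of 35 members lost their edge peak (20.0%, 8.44 to 36.9), against 22.7% of all genes, and 0 of 5 gained one, against 3.22%. The 7 were Mcm2, Cdc6, Rrm2, Ccnd3, Cdkn1b, Bub1b and Aurkb. Among the 9930 highest peaks 5 of 32 were lost (15.6%), without Ccnd3 and Aurkb, against 17.5%. There 1 of 8 was gained, Bub1, whose untreated peak fell below the limit of the shortened list, against 5.28%. Here too the interval of the share lost held the share over all genes.

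Mcm2, Bub1b and Aurkb lost their edge peak with IL-4 in both genotypes, which is 42.9% of the WT losses and 42.9% of the KO losses. Over all genes the losses shared were 30.4% of the WT ones and 42.4% of the KO ones. With lists of equal length Mcm2 and Bub1b remained, 2 of the 6 WT losses and 2 of the 5 KO losses, against 21.8% and 20.6% over all genes. The other 8 members lost it in one genotype alone. Of these, Rb1 had no edge peak in KO untreated and Ccnd3 none in WT untreated, so 6 could have lost it in both. Whether IL-4 acted differently on them in KO and WT was not tested. The lost peaks had a lower median score in the untreated list than the kept ones, with ranges that overlapped. In WT the lost peaks had scored 69.35 to 143.75 (median 126) and the kept ones 114.52 to 700.37 (median 213). In KO the lost ones had scored 51.68 to 95.43 (median 76.2) and the kept ones 62.82 to 502.29 (median 175).

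Over all genes the losses were more frequent at low scores. Of all genes with a WT untreated edge peak, 13.4% of those above the 50th percentile and 66.2% of those below it had none in WT IL-4, and of the members 4 of 31 (12.9%) above and 3 of 3 below. In KO these shares were 8.96% and 53.4% over all genes, with 1 of 27 members (3.70%) above and 6 of 8 (75.0%) below. In WT 4 of the 7 lost members were above the 50th percentile, as were 31 of all 34 members with an edge peak there. The part of the score in the losses was not tested.

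**Figure D5:**
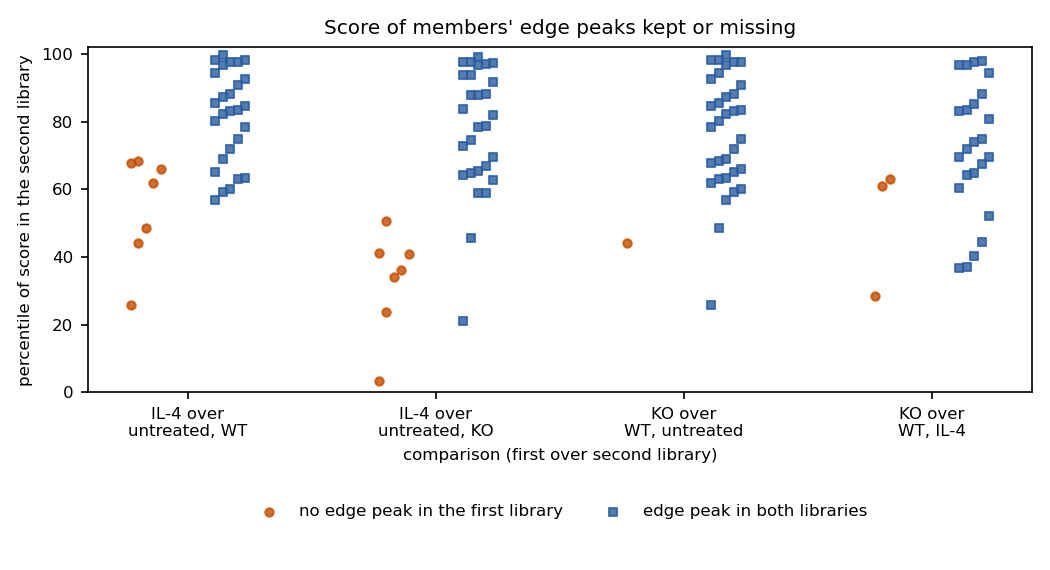
Percentile of each member's edge peak in the second library of a comparison (y axis, 0 to 100), for members with no edge peak in the first library (circles) and with one in both (squares), in the 4 comparisons (x axis, first over second library). For IL-4 over untreated the circles run from 25.7 to 68.4 in WT and from 3.36 to 50.7 in KO, and overlap the squares, which start at 56.9 in WT and 21.0 in KO.

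With KO over WT among untreated cells few members differed. Of 34 with an edge peak in WT untreated, 1 had none in KO untreated, Rb1 (2.94%, 0.0744 to 15.3), against 15.1% of all genes. Of 6 without one, 2 gained it, Bub1 and Ccnd3, against 3.88%. Among the 9930 highest peaks the 1 loss, of 33, was again Rb1, against 12.1%, and 0 of 7 were gained, against 5.78%. With all peaks the interval of the share lost held the share over all genes. Of edge peaks above the median score of the WT untreated list (101.1), 0 of 31 members and 4.26% of all genes had none in KO untreated. Below that score it was 1 of 3 members and 41.55% of all genes. The part of the score in this difference was not tested. In the loci, 5 of the 59 KO untreated peaks had no overlapping peak in WT untreated (8.47%), against 13.9% over all genes. Of the 64 WT untreated peaks, 10 had none in KO untreated (15.6%, 7.76 to 26.9), against 29.1% of the locus peaks of all genes. With equal lengths 4 of 51 were lost (7.84%, 2.18 to 18.9), against 19.9%.

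With KO over WT under IL-4, members differed in both directions. Of 27 with an edge peak in WT IL-4, 3 had none in KO IL-4, Cdc6, Rrm2 and Cdkn1b (11.1%, 2.35 to 29.2), against 15.6% of all genes. Of 13 without one, 4 had it in KO IL-4, Pola1, Cdk2, Ccnb2 and Bub1 (30.8%, 9.09 to 61.4), against 7.1%. An edge peak in no library at all was the state of 58.3% of all genes, but of 4 of the 40 members. Shares gained, here and in the other comparisons, thus have unlike bases in members and in all genes. At equal list lengths the same 7 genes differed, against 16.6% lost and 6.56% gained over all genes. Bub1 had an edge peak in neither WT library, whereas the other 6 had one in both untreated libraries and differed in the IL-4 ones alone.

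Counted over the loci, the 40 genes held 43 peaks in KO IL-4, 59 in KO untreated, 39 in WT IL-4 and 64 in WT untreated. The log2 ratio of IL-4 over untreated was -0.71 in WT, against -0.75 for the loci of all genes, with 25 of 64 peaks lost (39.1%, against 45.1% over all genes) and 0 of 39 gained (against 9.06%). In KO it was -0.46, against -0.38, with 19 of 59 lost (32.2%, against 35.6%) and 3 of 43 gained (6.98%, against 15.6%). At equal list lengths these ratios were -0.39 in WT and -0.25 in KO, against -0.01 and -0.02 over all genes. The shares lost were then near those over all genes, 13 of 51 in WT (25.5%, against 24.1%) and 12 of 51 in KO (23.5%, against 25.2%). The shares gained were lower, 1 of 39 in WT (2.56%, against 23.5%) and 4 of 43 in KO (9.30%, against 23.85%), which was not tested. The log2 ratio of KO over WT was -0.12 untreated, against -0.30 over all genes, and 0.14 under IL-4, against 0.07. Under IL-4, 8 of 43 peaks were gained (18.6%, against 27.4% over all genes) and 4 of 39 lost (10.3%, against 24.2%). At equal list lengths it was 0.00 untreated and again 0.14 under IL-4.

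Most locus peaks of the members lay at a gene edge, but the same count was not made over the loci of all genes. Of the 43, 59, 39 and 64 peaks in KO IL-4, KO untreated, WT IL-4 and WT untreated, 29, 36, 28 and 37 were at the edge of a member and 6, 10, 5 and 12 at the edge of another gene alone. The 8, 13, 6 and 15 that remained were at no gene edge, and 5, 8, 3 and 9 of them lay inside the member. The peaks away from gene edges at Cdk6 and Rb1 were among those listed in the untreated libraries and not with IL-4, whereas that of Cdkn1a was in every list.

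Other genes of the same pathways, 83 in all and chosen by name, also had edge peaks at a higher share than all genes in each library. One was present at 59 in KO IL-4 (71.1%), 63 in KO untreated (75.9%), 63 in WT IL-4 (75.9%) and 69 in WT untreated (83.1%), and at 54 (65.1%) in every library. The 22 mitosis genes on that list had one at 19, 21, 22 and 22 in KO IL-4, KO untreated, WT IL-4 and WT untreated. At equal list lengths these were 19, 20, 22 and 21. Over all genes the shares were 29.0%, 34.8%, 28.4% and 38.2%. The 12 G2 and mitosis members, with 10, 12, 8 and 11, had the higher counts in KO, and at equal lengths had 10, 10, 8 and 10. With IL-4 over untreated, 7 of 69 lost one in WT (10.1%, 4.18 to 19.8), against 28.8% of all genes, and 1 of 14 gained one, against 1.89%. With lists of equal length this turned to 2 of 59 lost (3.39%), against 16.8%, and 6 of 24 gained, against 5.61%.

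In KO, 7 of 63 of these genes lost one with IL-4 (11.1%, 4.59 to 21.6), against 22.7% of all genes, and 3 of 20 gained one, against 3.22%. Among the 9930 highest peaks these were 6 of 60 lost and 5 of 23 gained, against 17.5% and 5.28%. With KO over WT untreated, 8 of 69 lost one (11.6%, 5.14 to 21.6), against 15.1%, and 2 of 14 gained one, against 3.88%, which became 3 of 59 lost and 4 of 24 gained at equal lengths, against 12.1% and 5.78%. Under IL-4, 8 of 63 lost one (12.7%, 5.64 to 23.5), against 15.6%, and 4 of 20 gained one, against 7.1%, with the same counts at equal lengths, against 16.6% and 6.56%. The direction of the IL-4 counts in WT and of the untreated KO counts thus depended on list length. Shares gained have unlike bases here too, since 11 of the 83 genes had an edge peak in no library. Whether these genes differed from the 40 was not tested.

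Among these genes, 6 were named by the number of comparisons in which they differed and by score. Foxm1, a factor that drives mitotic genes, had an edge peak in KO untreated (84.32) and WT IL-4 (53.09) alone. Fen1, the nuclease that trims Okazaki fragments, had the opposite pattern, in KO IL-4 (75.41) and WT untreated (68.67) alone. Cdc7, the kinase that fires origins, Pold1, the catalytic subunit of polymerase delta, and Cdc25b, a phosphatase of mitotic entry, were listed everywhere but in KO IL-4. Their scores in KO untreated, WT IL-4 and WT untreated were 171.29, 73.51 and 123.26 for Cdc7, 121.76, 118.61 and 159.41 for Pold1, and 152.44, 72.76 and 85.52 for Cdc25b. Chek1, a checkpoint kinase, was listed in KO IL-4 (90.86), KO untreated (92.36) and WT untreated (152.47) and not in WT IL-4, as were Pola1, Cdk2 and Ccnb2.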

How the data were processed

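ATAC-seq peak lists of 4 macrophage libraries, 1 per group, were analysed. The submitters' processing notes name Bowtie2 2.2.5, MACS 1.4.2, HOMER and build mm10 without roles. The lists were deposited with a score per peak (column 5), and no source used here says how the authors' peak caller computed that score. The authors deposited 1 list per library. Read depth is unknown, so list length and exact Clopper-Pearson 95% intervals (counting error only) are the precision available.

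Peaks were placed with Python 3.11.15, pandas 2.3.3, NumPy 2.4.6 and SciPy 1.17.1 against RefSeq spans of GRCm38.p6, whose coordinates are those of mm10. Gained and lost locus peaks had no overlap of 1 bp or more in the other list. The lookup of edge peaks was checked against a direct search in the WT untreated list, and on that list with peaks removed and others planted. Members and gene lists were chosen with earlier results of these data known. Named peak by peak are members whose edge status differed between libraries, those with no edge peak, and those with 3 or more locus peaks in a library. At most 6 other pathway genes are named, ordered by the number of comparisons in which they differed and then by score. Of these, Foxm1 and Fen1 differed in 4 comparisons, and Cdc7, Pold1, Chek1 and Cdc25b in 2, as did other genes with lower scores. A few constant members are named beside them as examples of their role, chosen after their values were seen. Alternatives tried were lists of equal length, a score of at least 100, edges of 2.5 kb, start-site ends alone, loci of 50 kb, a reciprocal overlap of 50%, and counting an edge peak as changed only where it overlapped no peak of the other list.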

Additional observations from a re-analysis of the deposited data

Results flagged for a closer look

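Some values moved in opposite directions under the same contrast. In none of these cases was the difference tested, since each group is 1 library. Foxm1 had an edge peak more with IL-4 than untreated in WT (difference 1) and one fewer in KO (difference -1), while Fen1 had one fewer in WT (-1) and one more in KO (1). Seen as KO minus WT, Foxm1 had a difference of 1 untreated and -1 under IL-4, and Fen1 had -1 untreated and 1 under IL-4. At equal list lengths Fen1 has no edge peak in either WT library, so its difference is 0 between the WT libraries and 0 between the untreated ones, and the opposite directions are gone, while those of Foxm1 are kept. The Foxm1 peak in WT IL-4 scored 53.09, and neither gene had an edge peak above 84.32 in any list.

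At Mcm2 the number of locus peaks, KO minus WT, was -1 untreated (2 in KO, 3 in WT) and 1 under IL-4 (1 in KO, 0 in WT). The peaks concerned lay upstream of the gene, and the one it had under IL-4 was at the edge of Tpra1. With equal lengths Mcm2 had 2 locus peaks in KO untreated and 2 in WT untreated, a difference of 0. Over all 40 genes the difference in locus peaks, KO minus WT, was -5 untreated (59 and 64) and 4 under IL-4 (43 and 39). The list lengths differed in the same directions, 13714 in KO against 17339 in WT untreated, and 10443 in KO against 9930 in WT under IL-4, and their part in it was not tested. At equal list lengths the untreated libraries held 51 locus peaks each.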

How the results depend on the processing

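No paired analysis was possible because each group is 1 library, and leaving out a replicate was not possible for the same reason. Of 100 values recomputed under an alternative, 69 stayed within 1.5 times the first count or within its exact interval and 31 did not. None of the 31 arose with edges of 2.5 kb, with a reciprocal overlap of 50% or with the stricter rule for a changed edge peak.

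With peaks of score 100 or more, the share of the 40 genes with an edge peak was 50.0% in KO IL-4, 65.0% in KO untreated and 47.5% in WT IL-4. In WT untreated it was 77.5%, within the first interval. Of locus peaks, KO IL-4 then had 26 and KO untreated 36. IL-4 over untreated lost 12 edge peaks in WT, and in KO it lost 11 locus peaks and gained 1. KO over WT untreated lost 5 edge peaks and gained 0, and gained 1 locus peak. Shares over all genes at this limit are not given, so these values cannot be set against genes at large.

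With loci of 50 kb, locus peaks numbered 86 in KO IL-4, 117 in KO untreated, 78 in WT IL-4 and 143 in WT untreated. IL-4 over untreated gained 1 and lost 64 in WT, and gained 11 and lost 41 in KO. KO over WT gained 13 and lost 38 untreated, and gained 20 and lost 12 under IL-4. Counts over all genes with these wider loci are not given either.

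With lists of equal length, IL-4 over untreated gained 1 locus peak and lost 13 in WT, and in KO gained 1 edge peak and lost 12 locus peaks. KO over WT untreated then gained 0 edge peaks and lost 4 locus peaks. At the start-site end alone it gained 1 edge peak and lost 0. By construction, fewer peaks enter with a score limit or equal lengths, and more with wider loci. No read depth is known, so a gene without a peak may lie just under the limit of its list.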
